A study of Mus musculus with 16 samples.

Results

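Xlr3a, Xlr3b, Xlr4a, Xlr4b and Xlr4c are 5 protein-coding genes of the X-linked lymphocyte-regulated family that lie side by side on the mouse X chromosome. They were chosen by symbol, with earlier results of these same data in view, and are 5 of the 30141 gene rows measured. The values given for them are therefore a description of these libraries. All 5 passed the filter on low counts, which 18341 genes passed.

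The Xlr genes belong to a rodent family of nuclear proteins related to SYCP3, a structural protein of the meiotic chromosome axis. Family members were first described in lymphoid cells and are also transcribed in germ cells and in the nervous system. Xlr3b, Xlr4b and Xlr4c are known as X-linked imprinted genes in the developing mouse brain, where the maternally inherited copy is favoured. A male cell has only a maternal X chromosome. Transcripts of the family are known to increase in cells that lose DNA methylation. Azacitidine is a cytidine analogue that is built into nucleic acids and traps DNA methyltransferases on DNA, and DNMT3A is one of those enzymes.

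RNA was sequenced from LSK cells, the lineage-negative, Sca1-positive, Kit-positive fraction of mouse bone marrow in which haematopoietic stem cells and their first progeny are found. The R882H donors carried human DNMT3A with the R882H substitution behind a Lox-Stop-Lox cassette, made in JM8.N4 (C57BL/6N) embryonic stem cells and crossed to Mx1-Cre mice, whose Cre is induced by interferon. R882H cells are labelled as expressing mouse WT DNMT3A together with human R882H DNMT3A, and WT cells as mouse WT DNMT3A +/+. Poly(I:C) was injected into Mx-Cre+ and Mx-Cre- donors alike, at 15 µg for each g of body weight, and marrow was taken 4 weeks later. The labels do not say whether WT donors had Mx1-Cre. It was mixed 1:1 with CD45.1 marrow of B6.SJL mice and transplanted into CD45.1 recipients. After 2 weeks the recipients received azacitidine at 2.5 mg per kg or 0.9% NaCl for 2 weeks, with 5 days on, 2 off and 5 on. The labels also give a poly(I:C) dose of 400 µg without saying which animals had it, do not state the age of the mice, and do not say whether donor cells were separated from competitor cells in the sort. The groups were WT with NaCl (n = 4), WT with azacitidine (n = 3), R882H with NaCl (n = 4) and R882H with azacitidine (n = 5). The labels do not state that libraries of a group came from separate animals, so each SD measures the spread between these libraries. Each SE is worked back from the test of the log2 difference, with a variance moderated over all genes, and likewise refers to libraries.

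Gene counts ran from 33417449 to 53581601 per library. All 10 LSK markers, among them Kit and Ly6a, had counts in all 16 libraries, and their summed level ran from 1670 to 4289 CPM (counts scaled to the TMM-adjusted size of each library, edgeR's CPM). The Y-linked Ddx3y lay between 57.9 and 83.6 CPM and Xist between 0 and 0.853 CPM in all 16 libraries. Replicate 1 of R882H with NaCl stood apart in T cell genes: Cd3d, a subunit of the T cell receptor complex, was at 22.3 CPM there and between 0.141 and 2.41 CPM in the other 15 libraries. Erythroid markers summed to 3743, 9827, 1662 and 1675 CPM in replicates 1 to 4 of R882H with NaCl and to no more than 2156 CPM in the other groups. Replicate 2 of R882H with NaCl also had the lowest LSK marker sum, 1670 CPM.

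The cluster spans 168.8 kb of chromosome X in the GRCm38 annotation (GENCODE M21), at chrX:73074345-73243130, in the order Xlr4a, Xlr3a, Xlr3b, Xlr4b, Xlr4c. Xlr4a (ENSMUSG00000079845) lies at chrX:73074345-73082478 on the minus strand, and Xlr3a (ENSMUSG00000057836) at chrX:73086293-73097095, also on the minus strand. Xlr3b (ENSMUSG00000073125) lies at chrX:73192207-73202930 and Xlr4b (ENSMUSG00000067768) at chrX:73214333-73222453, both on the plus strand. Xlr4c (ENSMUSG00000031362) lies at chrX:73233688-73243130 on the minus strand. Each gene has annotated transcripts of up to 9 exons. An annotated Xlr5a model at chrX:73107635-73292976 on the minus strand spans Xlr3b, Xlr4b and Xlr4c. It had 2 counts in all 16 libraries together.

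The copies are close in sequence, which bears on how far their counts can be told apart. The longest transcripts of Xlr4a, Xlr4b and Xlr4c were identical at 98.7 to 99.1% of aligned positions, and those of Xlr3a and Xlr3b at 98.1%. An exact run of 100 bases shared with another gene's transcript started at 45.5% of the positions of Xlr4a, 28.0% of Xlr4b, 37.8% of Xlr4c, 24.5% of Xlr3a and 33.5% of Xlr3b. How the authors' counting treated reads with several positions is not given in the sources used here, so the split between copies is uncertain. The promoters of the Xlr4 genes, whose levels varied together across the libraries, are shown with that of Xlr3b, whose level varied more widely. CpG dinucleotides, the sites that DNA methyltransferases act on, are in capitals. The sequences are from RefSeq (GRCm38.p6), 250 bases before to 50 bases after the start, 5′ to 3′ on the strand of the gene. They lie at chrX:73082458-73082757 (minus) for Xlr4a, chrX:73214083-73214382 (plus) for Xlr4b, chrX:73243081-73243380 (minus) for Xlr4c and chrX:73191929-73192228 (plus) for Xlr3b.
Xlr4a: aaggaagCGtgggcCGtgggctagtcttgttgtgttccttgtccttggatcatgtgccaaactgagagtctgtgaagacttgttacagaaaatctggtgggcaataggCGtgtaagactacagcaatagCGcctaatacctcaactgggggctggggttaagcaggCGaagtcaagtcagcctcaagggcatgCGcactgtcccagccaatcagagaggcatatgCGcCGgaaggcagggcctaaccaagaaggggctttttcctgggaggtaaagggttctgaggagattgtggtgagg
Xlr4b: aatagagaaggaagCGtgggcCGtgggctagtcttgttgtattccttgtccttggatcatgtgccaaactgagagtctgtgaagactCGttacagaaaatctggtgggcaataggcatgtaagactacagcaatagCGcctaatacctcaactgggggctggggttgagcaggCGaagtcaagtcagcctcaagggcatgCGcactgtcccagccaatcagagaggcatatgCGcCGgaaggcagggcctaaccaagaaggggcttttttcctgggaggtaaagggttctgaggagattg
Xlr4c: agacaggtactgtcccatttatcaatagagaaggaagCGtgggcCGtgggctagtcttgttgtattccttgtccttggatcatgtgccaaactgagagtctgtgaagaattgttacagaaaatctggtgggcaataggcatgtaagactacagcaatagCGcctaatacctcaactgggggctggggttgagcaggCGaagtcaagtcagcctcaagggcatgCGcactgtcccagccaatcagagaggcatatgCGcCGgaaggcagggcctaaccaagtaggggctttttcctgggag
Xlr3b: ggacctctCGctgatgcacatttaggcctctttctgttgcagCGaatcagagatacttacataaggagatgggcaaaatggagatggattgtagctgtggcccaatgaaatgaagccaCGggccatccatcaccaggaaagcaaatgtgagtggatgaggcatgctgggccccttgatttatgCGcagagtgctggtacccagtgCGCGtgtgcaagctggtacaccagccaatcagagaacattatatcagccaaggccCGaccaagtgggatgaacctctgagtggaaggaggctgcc

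The promoter windows of Xlr4a, Xlr4b and Xlr4c were identical at 98.1 to 98.9% of aligned positions and held 8, 8 and 7 CpGs. Xlr3b had 7 CpGs and Xlr3a had 5, and the Xlr3 pair was identical at 93.7% of aligned positions. The median over 32851 RefSeq promoters of the same length was 7 CpGs, with quartiles of 3 and 20, so all 5 windows lay between the quartiles. CCAAT, the box bound by NF-Y, occurred 1 time in each Xlr4 window, 4 times in Xlr3a and 2 times in Xlr3b on either strand, and in 37.4% of all promoters. None of the 5 windows held the E-box CACGTG, which 7.15% of all promoters hold on either strand. The same was true of the GC box GGGCGG, found in 35.7% of promoters, and of the E2F-type motif TCCCGC, found in 19.98%. These are matches of letters only. DNA methylation was not analysed here.

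Xlr4a and Xlr4b had the highest transcript levels of the 5 genes. Per length, in FPKM, Xlr4a was highest in every group, at 13.3 ± 3.67 (SD, n = 4) in WT with NaCl, followed by Xlr4b at 4.68 ± 0.438. Xlr3b at 1.47 ± 1.24, Xlr4c at 1.37 ± 0.387 and Xlr3a at 0.757 ± 0.450 came next. The libraries of Xlr4a and Xlr4b did not overlap with each other within any group. The ranges of Xlr3b and Xlr4c overlapped in every group, so the order between those genes is not set beyond their spread. In WT with azacitidine the means were 24.4, 7.22, 4.38, 3.91 and 0.452 FPKM for Xlr4a, Xlr4b, Xlr4c, Xlr3b and Xlr3a. Across all 16 libraries the highest level in CPM was 2.10 times the lowest for Xlr4b, 3.55 times for Xlr4a and 5.91 times for Xlr4c. For Xlr3b it was 322 times the lowest.

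**Figure D1:**
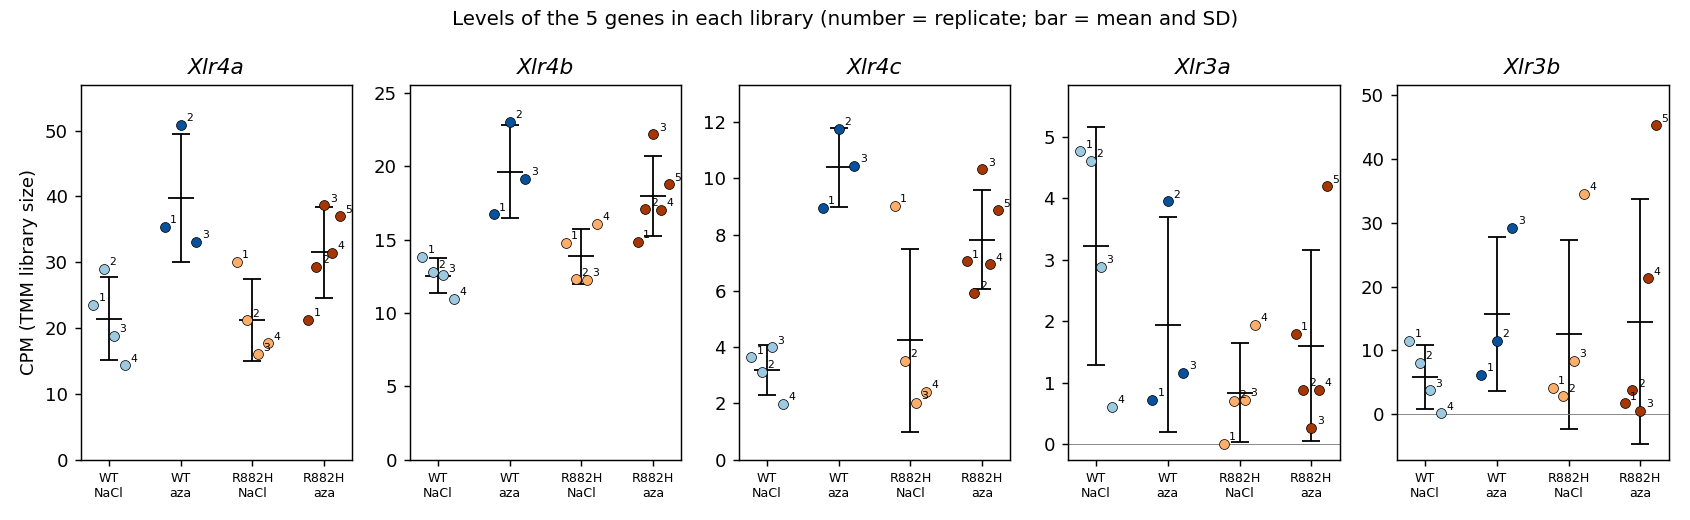
Level of each gene in CPM (linear axis, own scale per panel) in the 16 libraries, by group; each point is 1 library with its replicate number, and the bars are the mean and SD. In WT all 3 azacitidine libraries lie above all 4 NaCl libraries for Xlr4a, Xlr4b and Xlr4c, while the Xlr3b libraries spread from 0.140 to 45.3 CPM with no order by group.

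By point value over all libraries, Xlr4c had a larger difference between azacitidine and NaCl than Xlr4a or Xlr4b in both genotypes. No test compared the copies. In WT with NaCl it was at 3.64, 3.12, 4.00 and 1.99 CPM in replicates 1 to 4, a mean of 3.19 ± 0.876. In WT with azacitidine it was at 8.96, 11.8 and 10.4 CPM, a mean of 10.4 ± 1.40. The lowest treated library was more than 2 times the highest control, and the ratio of the means was 3.261. In R882H with NaCl it was at 9.03, 3.52, 2.03 and 2.41 CPM, and in R882H with azacitidine at 7.05, 5.93, 10.3, 6.95 and 8.86 CPM. Replicate 1 of R882H with NaCl lay within the range of the treated libraries, and the other 3 controls lay below all 5 of them. The ratio of the means was 1.84 with that library and 2.95 without it, where the 3 controls averaged 2.65 ± 0.770 CPM. The same library had the high Cd3d level given above, 703 CPM of summed T and NK cell markers against 314 to 332 CPM in the other R882H controls, and 19.8 CPM of Tcf7, a transcription factor of T cells and early lymphoid progenitors. The same marker sum was 707, 674, 415 and 341 CPM in replicates 1 to 4 of WT with NaCl, whose Xlr4c levels are given above. The part of T and NK cells in the Xlr4c level of replicate 1 of R882H with NaCl was not tested. In the WT libraries with azacitidine, where Xlr4c was highest, Cd3d was between 0.216 and 0.693 CPM, against 0.141 to 0.430 CPM in WT with NaCl. Tcf7 was at 31.1, 37.7 and 9.18 CPM there, a mean of 26.0 ± 14.9, against 6.48 ± 1.73 CPM in WT with NaCl. It is not in the list of T and NK markers. It is among the genes most alike to Xlr4c over these same libraries (r = 0.821), so its values are no separate measure of cell content. Of the T and NK markers, Trbc2, a T cell receptor constant gene, was at 6.59, 7.28 and 3.69 CPM in WT with azacitidine, against 1.37 to 3.07 CPM in WT with NaCl. Cd4 went the other way, at 0.719, 0.595 and 1.62 CPM against 1.17 to 2.76 CPM. By log2 difference 9 of the 11 tested markers were above 0 in WT, with 0 at an unadjusted p under 0.05 in edgeR.

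Xlr4a, the most abundant of the 5, was at 23.5, 29.0, 18.9 and 14.3 CPM in WT with NaCl and at 35.4, 50.9 and 33.1 CPM in WT with azacitidine. All treated WT libraries lay above all WT controls. In R882H with NaCl it was at 30.1, 21.2, 16.03 and 17.7 CPM, and with azacitidine at 21.3, 29.3, 38.6, 31.4 and 37.0 CPM. These groups overlapped through replicate 1 of the controls. Without that library the controls ended at 21.2 CPM and the treated libraries began at 21.3 CPM.

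Xlr4b was at 13.9, 12.8, 12.6 and 11.0 CPM in WT with NaCl and at 16.7, 23.0 and 19.14 CPM in WT with azacitidine, again with no overlap. In R882H with NaCl it was at 14.8, 12.3, 12.3 and 16.1 CPM, and with azacitidine at 14.9, 17.1, 22.2, 17.0 and 18.8 CPM. The highest control here was replicate 4, which lay above the lowest treated library.

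The Xlr3 genes overlapped between all groups. Xlr3a was at 4.77, 4.61, 2.89 and 0.609 CPM in WT with NaCl and at 0.719, 3.95 and 1.15 CPM in WT with azacitidine. In R882H with NaCl it had no count in replicate 1, where a count of 0 allows up to 0.0885 CPM (3 counts, counting error only), and was at 0.693, 0.718 and 1.94 CPM in the others. In R882H with azacitidine it was at 1.79, 0.878, 0.259, 0.877 and 4.20 CPM. The highest libraries were 2 WT controls, and no group lay wholly above another.

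Xlr3b, a copy known for its imprinting in brain, was at 11.5, 8.05, 3.75 and 0.140 CPM in WT with NaCl. The last of these stood for 6 counts. In WT with azacitidine it was at 6.23, 11.5 and 29.2 CPM, in R882H with NaCl at 4.16, 2.93, 8.42 and 34.5 CPM, and in R882H with azacitidine at 1.73, 3.75, 0.541, 21.3 and 45.3 CPM. The 5 libraries of that last group ranged from 23 to 1835 counts. The lowest library of all was a WT control and the highest an R882H library with azacitidine. In each group the SD was of about the size of the mean, such as 14.5 ± 19.2 CPM in R882H with azacitidine.

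The fit over all genes put numbers on these differences. For azacitidine against NaCl in WT, the log2 difference was 1.70 (SE 0.42) for Xlr4c, 0.89 (SE 0.27) for Xlr4a and 0.64 (SE 0.18) for Xlr4b. It was 1.42 (SE 1.27) for Xlr3b and -0.73 (SE 1.02) for Xlr3a. In R882H it was 0.88 (SE 0.37) for Xlr4c, 0.57 (SE 0.24) for Xlr4a and 0.38 (SE 0.16) for Xlr4b, and 0.92 (SE 0.91) for Xlr3a and 0.21 (SE 1.12) for Xlr3b. The Xlr4 differences were thus above 0 in both genotypes by more than 2 SE, and those of Xlr3a and Xlr3b were within 2 SE of 0. The median over the 5 genes was 0.89 in WT and 0.57 in R882H, against 0.01 and -0.04 over all genes tested.

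After Benjamini-Hochberg adjustment over all genes, edgeR's quasi-likelihood test called 0 of the 5 genes for azacitidine in WT, where it called 0% of all genes, and 0 of 5 in R882H, where it called 0.00545%. At an unadjusted p under 0.05, Xlr4a, Xlr4b and Xlr4c passed in both genotypes, beside 6.02% of all genes in WT and 6.69% in R882H. The lowest adjusted p of the 5 in edgeR was 0.639 in WT and 0.686 in R882H. DESeq2 called Xlr4c in WT, with an adjusted p of 0.0293, beside 0.251% of all genes, and none of the 5 in R882H, beside 0.48% of all genes. limma-voom called 0 of the 5 in WT, beside 0% of all genes, and 0 of 5 in R882H, beside 0.00545%. The groups did not overlap, with azacitidine higher, for 3 of 5 genes in WT beside 2.94% of all genes, and for 0 of 5 in R882H beside 1.09%. Without replicate 1 of R882H with NaCl, Xlr4a and Xlr4c also did not overlap in R882H, beside 1.99% of all genes. Because the genes were chosen with these contrasts known, nothing is read from these shares.

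**Figure D2:**
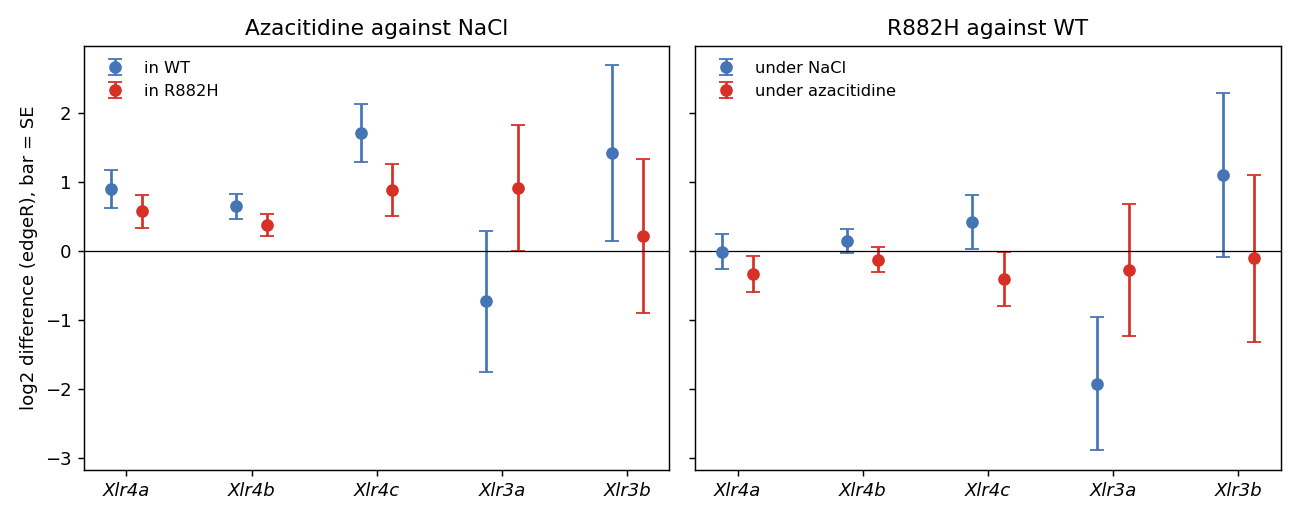
Log2 difference of each gene with its SE from the edgeR fit to all 16 libraries, for azacitidine against NaCl in each genotype (left) and for R882H against WT under each treatment (right). The Xlr4 genes lie above 0 on the left in both genotypes, from 0.38 to 1.70, while the bars of Xlr3a and Xlr3b are several times longer.

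Counts summed over the near-identical copies do not depend on how reads were split among the copies summed. They still depend on whether reads with several positions were dropped, and on reads shared with rows outside the sum, such as family pseudogenes. The sum of Xlr4a, Xlr4b and Xlr4c differed between azacitidine and NaCl by a log2 value of 0.91 (SE 0.22) in WT and 0.54 (SE 0.20) in R882H. The sum of Xlr3a, Xlr3b and Xlr3c differed by 0.96 (SE 1.13) in WT and 0.27 (SE 1.00) in R882H. Averaged over both genotypes, a contrast added after the data were seen, the log2 difference was 1.29 (SE 0.28) for Xlr4c, 0.73 (SE 0.18) for Xlr4a and 0.51 (SE 0.12) for Xlr4b. edgeR called 0 of the 5 genes for it, beside 0.0218% of all genes, with a lowest adjusted p of 0.144, and 3 of 5 passed an unadjusted p of 0.05, beside 6.85%. DESeq2 called all 3 Xlr4 genes, with adjusted p-values of 0.0230 for Xlr4a, 0.00426 for Xlr4b and 0.00186 for Xlr4c, beside 0.878% of all genes.

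The point values of the R882H difference were not even over the libraries. Earlier results of these data had set the libraries numbered 1 and 2 apart from the higher numbers, and no label states the meaning of a number. The split was thus taken from these same data, so values and calls within it are a description. No test compared the sets. Among libraries 1 and 2 alone, the log2 azacitidine difference in R882H was 0.05 (SE 0.47) for Xlr4c, -0.01 (SE 0.32) for Xlr4a and 0.24 (SE 0.31) for Xlr4b. Among libraries 3 and above it was 1.95, 1.07 and 0.43, and edgeR then called Xlr4c (adjusted p of 0.0444) and Xlr4a (adjusted p of 0.0359), beside 1.24% of all genes. In WT the values were 1.59, 0.69 and 0.55 in the lower-numbered libraries and 1.79, 0.99 and 0.69 in the higher-numbered ones, where WT with azacitidine had 1 library which is assumed to vary like the other groups. The point values of the Xlr4 genes in WT were thus close in both sets of libraries. In R882H those of Xlr4c and Xlr4a were near 0 in the lower-numbered set, with SEs of 0.47 and 0.32. That set has 2 R882H controls. One of them is the library with high Cd3d. For Xlr4c it was at 9.03 CPM against 3.52 CPM in the other control and 7.05 and 5.93 CPM in the treated libraries. That other control, replicate 2, also differed from the higher-numbered controls, with 9827 CPM of summed erythroid markers, 1670 CPM of summed LSK markers and Cd3d at 2.41 CPM.

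The Xlr4 genes differed little by genotype against their SE. Under NaCl the log2 difference of R882H against WT was 0.41 (SE 0.39) for Xlr4c, -0.01 (SE 0.26) for Xlr4a and 0.14 (SE 0.17) for Xlr4b. Under azacitidine it was -0.41 (SE 0.39), -0.34 (SE 0.26) and -0.13 (SE 0.18). Without replicate 1 of R882H with NaCl, the difference of Xlr4c under NaCl was -0.25. Xlr3a was lower in R882H than in WT under NaCl by a log2 value of -1.92 (SE 0.97), with means of 0.836 ± 0.804 and 3.22 ± 1.94 CPM. These groups overlapped. That log2 value was -3.70 among libraries numbered 1 and 2 and -0.38 among those numbered 3 and above. Under azacitidine Xlr3a was at -0.28 (SE 0.96). Xlr3b was at 1.10 (SE 1.19) under NaCl and -0.11 (SE 1.21) under azacitidine. edgeR called 0 of the 5 genes in either genotype contrast, beside 0.00545% of all genes in each, and 0 of 5 passed an unadjusted p of 0.05, beside 5.59% under NaCl and 9.34% under azacitidine. DESeq2 also called 0 of the 5 in each, beside 0.153% under NaCl and 0.114% under azacitidine.

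The response in R882H minus the response in WT was -0.82 (SE 0.55) on the log2 scale for Xlr4c, -0.32 (SE 0.37) for Xlr4a and -0.27 (SE 0.24) for Xlr4b. It was -1.21 (SE 1.68) for Xlr3b and 1.65 (SE 1.37) for Xlr3a. The point values of the Xlr4 genes were smaller in R882H than in WT, by less than 2 SE in each case. With each library left out in turn they ran from -1.05 to -0.14 for Xlr4c, -0.51 to -0.10 for Xlr4a and -0.37 to -0.13 for Xlr4b. edgeR called 0 of the 5 for this difference, beside 0% of all genes, and 0 of 5 passed an unadjusted p of 0.05, beside 6.07%. DESeq2 called 0 of 5, beside 0.0654%. A difference between the genotypes in how the Xlr4 genes responded was therefore not detectable with these libraries. This difference shares its libraries with both responses.

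Within the Xlr4 counts, Xlr4c took a larger share with azacitidine than with NaCl in WT, without overlap. Xlr4a held 56.9 ± 5.51% of the summed Xlr4 counts in WT with NaCl and 56.7 ± 3.46% of them when azacitidine was given. Xlr4c held 8.60 ± 1.98% in WT with NaCl and 15.0 ± 1.498% with azacitidine, with the controls ending at 11.3% and the treated libraries beginning at 13.7%. Xlr4b held 34.5 ± 4.82% and 28.3 ± 1.98%. In R882H, Xlr4c held 9.91 ± 4.76% with NaCl and 13.7 ± 1.90% with azacitidine, and the highest share of all, 16.8%, was in replicate 1 of R882H with NaCl. These shares rest on the counts as deposited and on how reads were assigned between copies.

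**Figure D3:**
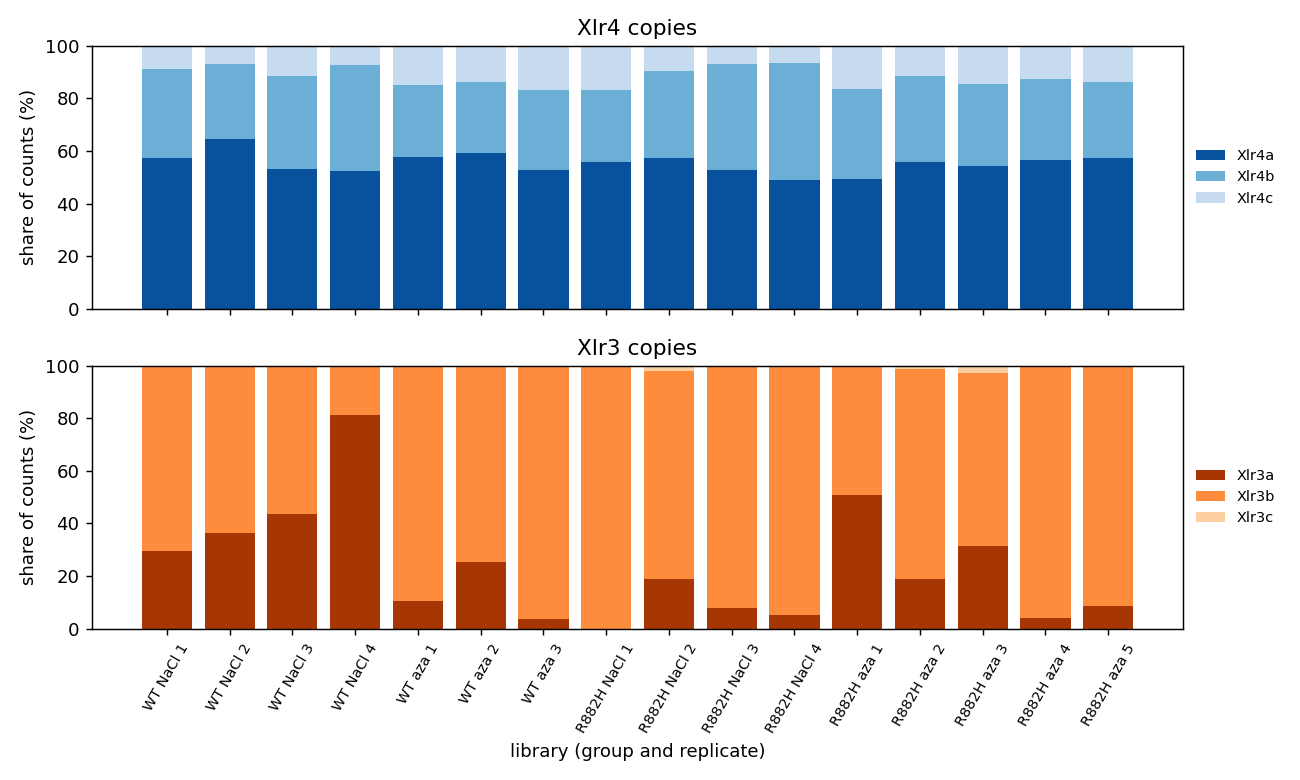
Share of each copy in the summed Xlr4 counts (top) and summed Xlr3 counts (bottom), in percent, for each of the 16 libraries. Xlr4a holds between 48.9 and 64.5% of the Xlr4 counts throughout, while the share of Xlr3b in the Xlr3 counts runs from 18.8 to 100%.

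Among the Xlr3 genes either copy could hold most of the counts. Xlr3b held 18.8% of the summed Xlr3 counts in replicate 4 of WT with NaCl and 100% in replicate 1 of R882H with NaCl. Xlr3a held 47.6 ± 23.2% in WT with NaCl, and on average 13.2% in WT with azacitidine, 7.97% in R882H with NaCl and 22.7% in R882H with azacitidine. Xlr3c, the remaining Xlr3 copy, had 29 counts in all libraries together.

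Across the 16 libraries, as a description, the log2 levels of the Xlr4 genes moved together, with Pearson's r of 0.850 for Xlr4a and Xlr4b, 0.880 for Xlr4a and Xlr4c and 0.825 for Xlr4b and Xlr4c. After subtraction of the group means these were 0.668, 0.721 and 0.459. The copies share much of their sequence, so a read of one can be counted for another. Xlr3a and Xlr3b had an r of 0.417. Between an Xlr3 gene and an Xlr4 gene it ran from -0.173 to 0.333.

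Genes outside the cluster with a pattern similar to the mean of the 5 included Col28a1, a collagen (r = 0.843), Mybpc3, a myosin-binding protein of muscle (r = 0.797), and Clec12a, an inhibitory C-type lectin receptor of myeloid cells (r = 0.793), over 16 libraries. Cpne5, Pde10a, 9230105E05Rik, Btbd16, Clec11a and Tcrg-C1 had lower values, with r between 0.765 and 0.784. Clec12a was also closest to Xlr4a (r = 0.913), 4933406J09Rik to Xlr4b (r = 0.865) and Mybpc3 to Xlr4c (r = 0.884). Second for Xlr4c was Tcf7 (r = 0.821). For Xlr3a the closest was Gm12247 (r = 0.874) and for Xlr3b Pkd1l1 (r = 0.792). Points in these correlations share group and depth, and the genes were picked as the highest of all tested.

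The genes beside the cluster showed no common direction with azacitidine. Within 500000 bases of the cluster, 20 of 36 other annotated genes had a row and 13 passed the filter. edgeR called 0 of the 13 for azacitidine in either genotype, with 1 at an unadjusted p under 0.05 in each, a share near the 6.02% and 6.69% of all genes. Their log2 differences were above 0 for 3 of 13 in WT, with a median of -0.14, and for 7 of 13 in R882H, with a median of 0.02. F8a, which lies between Xlr4b and Xlr4c, was at 30.6 ± 5.26 CPM in WT controls and 30.6 ± 5.11 CPM in WT with azacitidine, and its log2 differences were 0.00 (SE 0.18) in WT and 0.02 (SE 0.16) in R882H. Bgn, which encodes the matrix proteoglycan biglycan, was that gene in both, at -1.01 (SE 0.42) in WT and -1.03 (SE 0.35) in R882H.

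**Figure D4:**
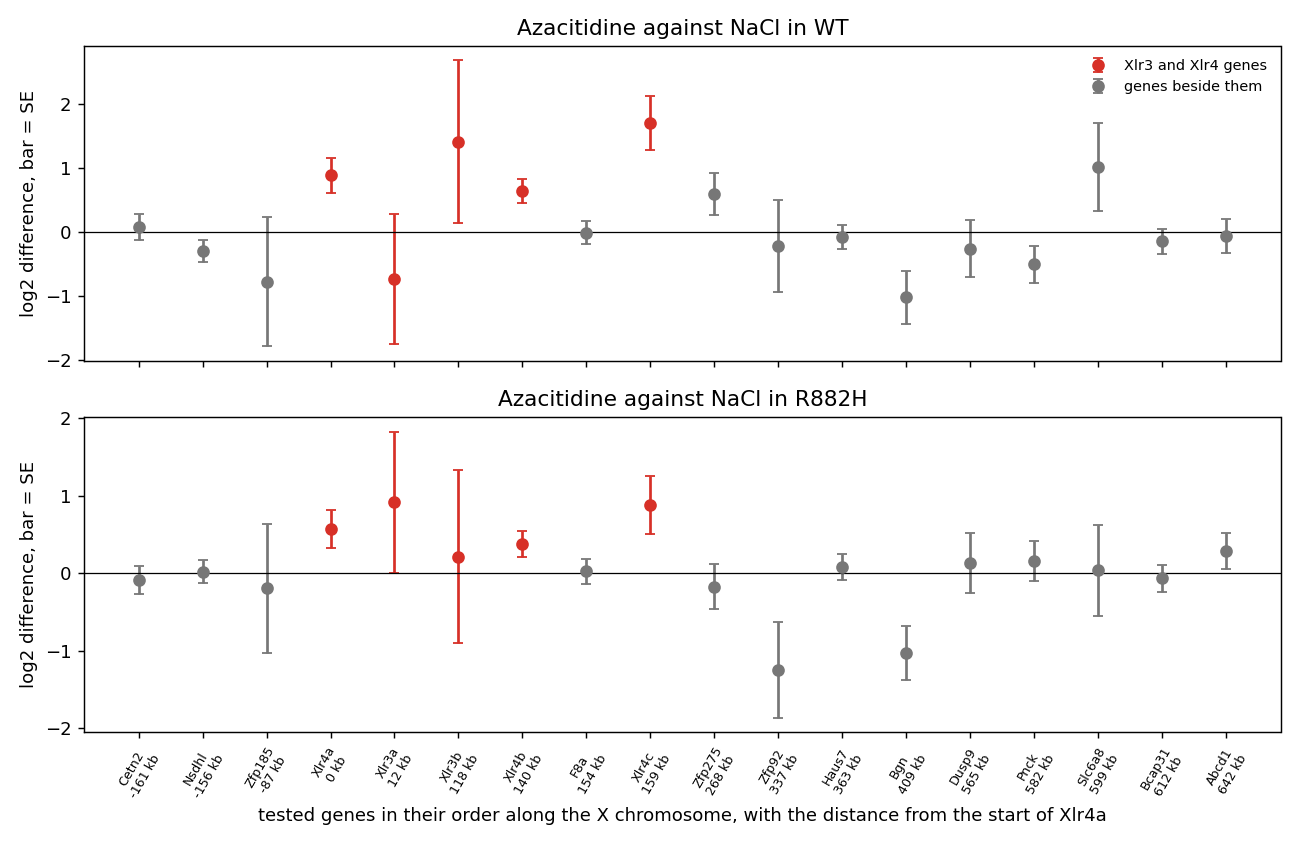
Log2 difference between azacitidine and NaCl with its SE for the genes tested along the X chromosome, in their order and with the distance in kb from the start of Xlr4a, in WT (top) and R882H (bottom). F8a, between Xlr4b and Xlr4c, lies at 0.00 and 0.02, while Xlr4b and Xlr4c lie above 0 in both panels.

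Most other members of the family had few counts or none. Of 9 relatives listed, 5 had a row and 1 passed the filter. That was Xlr, the founding member of the family, with log2 differences of 0.25 (SE 0.58) in WT and 0.21 (SE 0.52) in R882H for azacitidine against NaCl. Xlr5c had 1 count in all 16 libraries.

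Other gene lists linked to DNA methylation were set beside the Xlr4 genes: germline genes, imprinted genes and the DNA methylation machinery. Of 25 germline genes, such as Dazl and Ddx4, 18 had a row and 6 passed the filter, and edgeR called 0 of the 6 for azacitidine in either genotype, with 0 at an unadjusted p under 0.05. Their log2 differences were above 0 for 2 of 6 in WT, with a median of -0.37. In R882H they were above 0 for 4 of 6, with a median of 0.55. Ddx4 was at 15.3 ± 4.01 CPM in WT with NaCl, so not all of these genes were silent in those libraries. Of 25 imprinted genes, 17 passed the filter and edgeR called 0, with 4 in WT and 2 in R882H at an unadjusted p under 0.05, all of them lower with azacitidine. Over all genes, 1104 in WT (732 of them higher) and 1227 in R882H (410 of them higher) passed that p, which is 6.02% and 6.69%. The log2 differences of the imprinted genes were above 0 for 5 of 17 in WT, with a median of -0.51. In R882H they were above 0 for 3 of 17, with a median of -0.62. Among these, Snrpn, which encodes a spliceosomal protein, was at -2.42 (SE 0.79, edgeR adjusted p 0.825) in WT. Its level was low, at 1.15 ± 0.640 CPM in WT with NaCl and 0.213 ± 0.216 CPM in WT with azacitidine. Igf2r, the receptor that clears IGF2, was at -1.44 (SE 0.39, edgeR adjusted p 0.415) in R882H. The 18 genes of the DNA methylation machinery with a row all passed the filter and edgeR called 0, with 2 in WT and 0 in R882H at an unadjusted p under 0.05 and medians of -0.01 in WT and 0.08 in R882H. Dnmt3a was at 96.7 ± 9.84 CPM in WT with NaCl and 90.5 ± 19.6 CPM in R882H with NaCl. These counts are on the mouse genome, so the human R882H transcript is not measured by them as such.

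The summed markers of some other marrow cells also differed between the treatments, although edgeR called none of them. Mast cell and basophil markers, 6 of 6 with a log2 difference above 0 in both genotypes, summed to between 434 and 494 CPM in WT with NaCl, 545 and 743 CPM in WT with azacitidine, 382 and 526 CPM in R882H with NaCl and 576 and 704 CPM in R882H with azacitidine. Tpsb2 or Cma1, which encode mast cell proteases, had no count in 11 of the 16 libraries. None of the 5 megakaryocyte markers was at 0 in any library. Megakaryocyte markers summed to between 283 and 423, 355 and 915, 219 and 329, and 345 and 453 CPM in the same order of groups. The summed levels of both lists in R882H with azacitidine lay above all R882H controls, replicate 1 included. Erythroid markers, 8 of 8 with a log2 difference below 0 in R882H and 6 of 8 in WT, summed to between 1836 and 2156, 1020 and 1574, 1662 and 9827, and 1347 and 1692 CPM. T and NK cell markers summed to between 341 and 707, 455 and 909, 314 and 703, and 401 and 614 CPM, with overlap in each genotype, and Cd8a was at 0 in 11 of the 16 libraries. Gene by gene, 9 of 11 T and NK markers tested had a log2 difference above 0 in WT, with a median of 0.55 and 0 at an unadjusted p under 0.05. In R882H 2 of 11 did, with a median of -2.46, and 8 were at an unadjusted p under 0.05, all lower. Cd3d was at 22.3, 2.41, 0.144 and 0.208 CPM in the R882H controls and between 0.471 and 0.897 CPM in the treated libraries. Mature neutrophil markers were above 0 for 7 of 7 in both genotypes, with 0 at an unadjusted p under 0.05. They summed to between 14.5 and 108, 36.4 and 318, 2.61 and 146, and 2.28 and 627 CPM in the same order of groups. The 627 CPM was in replicate 2 of R882H with azacitidine, and the other libraries of that group lay between 2.28 and 9.13 CPM. Group medians of the sum were lower with azacitidine, at 48.8 against 58.4 CPM in WT and 3.95 against 18.2 CPM in R882H. Summed markers of B cells, plasma cells, and macrophages and dendritic cells also overlapped between treatments in both genotypes. The part of cell composition in the Xlr4 differences was not tested, and in such bulk libraries more cells of a type and more RNA per cell cannot be told apart.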

How the data were processed

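The members and all gene lists were chosen with earlier results of these data known. For each of the 16 libraries the authors deposited raw counts per gene and repeat family, with the length of each feature, after alignment by HISAT2 2.0.5 to GRCm38 (mm10) and counting by featureCounts 1.6.2, per the submitters' processing notes. These notes also name edgeR 3.26.6. The strand setting and the rule for reads with several positions are not given in the sources used here. The deposited FPKM values are those counts divided by length and by 1 library size per library. The deposited length column, another unit, holds the bases counted per feature.

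Of 30141 gene identifiers, 30100 were named by GENCODE M21, and 1201 repeat rows were left out. CPM are edgeR's, on the TMM-scaled library size. Genes were kept by filterByExpr, and edgeR 4.0.16 (R 4.3.3) fitted a quasi-likelihood model to 18341 genes in all 16 libraries, with 1 coefficient per group and Benjamini-Hochberg adjustment over all genes. An adjusted p under 0.05 was a call. Each SE given is the absolute log2 difference divided by the square root of the F of edgeR's test, so it restates that test. DESeq2 1.42.0, limma-voom (limma 3.58.1), other scaling, no filter, a replicate block, libraries numbered 1 and 2 or 3 and above, and each library left out in turn were the alternatives. Levels are means ± SD. Amplified reads carry no molecular identifiers, so counting error understates the error of a level. Of 25 pairs of libraries within groups, none were duplicates, the lowest chi-square per gene being 42.2. Named genes were the 5 members, their listed relatives, the tested genes within 500000 bases, up to 2 genes per list with the lowest p, and the genes most alike over the libraries, 1 of which is not reported here.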

Additional observations from a re-analysis of the deposited data

How the results depend on the processing

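Under TMM, DESeq2 size factors, no filter on low counts, limma-voom and a replicate block, edgeR or limma-voom called 0 of the 5 genes in each of the 5 contrasts. DESeq2 called 1 for azacitidine in WT (Xlr4c), and in R882H the libraries numbered 3 and above gave 2 (Xlr4a and Xlr4c). Libraries numbered 3 and above hold 1 library of WT with azacitidine. Their log2 differences for azacitidine averaged over genotypes were 1.87 for Xlr4c, 1.03 for Xlr4a and 0.56 for Xlr4b. For that averaged contrast, added after seeing the data, DESeq2 called 3 of the 5 (161 of 18341 over all genes). The fit without replicate 1 of R882H with NaCl and replicate 1 of WT with azacitidine gave 1 (5 of 18598 over all genes). Leaving out each library in turn gave 0 to 1, the call being Xlr4c (log2 difference 1.63, adjusted p 0.00695 in edgeR) without replicate 1 of R882H with NaCl (9 of 18126 over all genes). The summed Xlr4 counts passed the threshold at 0.92 in R882H and 0.96 on average among libraries numbered 3 and above, and at 0.72 on average in DESeq2. The log2 differences of Xlr4a, Xlr4b and Xlr4c for azacitidine in WT stayed above 0 under every alternative run, and so did those in R882H except Xlr4a among libraries numbered 1 and 2.

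Among libraries numbered 1 and 2, the azacitidine difference was -0.17 for Xlr3b and -0.39 for the Xlr3 sum in WT, and -0.36 for Xlr3b and -0.015 for Xlr4a in R882H. The difference between responses was then 0.46 for the Xlr3 sum, R882H against WT under NaCl was -1.44 for Xlr3b and -1.86 for the Xlr3 sum, and the averaged contrast was -0.26 for Xlr3b and -0.16 for the Xlr3 sum. Among libraries numbered 3 and above, the difference between responses was 0.081 for Xlr4a and 0.16 for Xlr4c. R882H against WT under NaCl was 0.030 for Xlr4a and -0.42 for Xlr4c, under azacitidine it was 0.62 for Xlr3a, 0.11 for Xlr4a, 0.015 for Xlr4b and 0.026 for the Xlr4 sum, and the averaged contrast was -0.10 for Xlr3a. In limma-voom the azacitidine difference in R882H was -0.68 for Xlr3b and -0.39 for the Xlr3 sum. Without the pair of libraries named above it was -0.062 for Xlr3b and -0.013 for the Xlr3 sum, and R882H against WT under NaCl was -0.25 for Xlr4c and -0.10 for the Xlr4 sum. The cause of these reversals was not tested.

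No label says whether replicate numbers pair the libraries. Deviations from the group means correlated between -0.124 and 0.345 for the same number (median 0.0641, 21 pairs). For different numbers they correlated between -0.415 and 0.375 (median -0.0280, 74 pairs). With groups of 3 to 5 libraries these values cannot settle whether the numbers mark pairs or batches. With the replicate number as a block, the azacitidine difference in R882H was -1.08 for Xlr3b and -0.83 for the Xlr3 sum. R882H against WT under NaCl was -0.063 for Xlr3b, 0.010 for Xlr4a and -0.45 for the Xlr3 sum, and the averaged contrast was -0.36 for Xlr3a. For Xlr4c it was 1.61 in WT and 0.97 in R882H.

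Leaving out each library in turn changed the sign of these log2 differences, given as their lowest and highest values. For R882H against WT under azacitidine it was -1.02 to 0.77 for Xlr3a, -1.20 to 0.72 for Xlr3b, -0.23 to 0.010 for Xlr4b and -1.18 to 0.53 for the Xlr3 sum. For azacitidine averaged over genotypes it was -0.43 to 0.51 for Xlr3a. For R882H against WT under NaCl it was -0.18 to 1.66 for Xlr3b, -0.22 to 0.17 for Xlr4a, -0.25 to 0.64 for Xlr4c, -0.68 to 1.00 for the Xlr3 sum and -0.10 to 0.19 for the Xlr4 sum. For azacitidine in R882H it was -0.87 to 1.49 for Xlr3b and -0.78 to 1.51 for the Xlr3 sum. For the difference between responses it was -2.29 to 0.070 for Xlr3b and -1.74 to 0.55 for the Xlr3 sum.

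Over all genes, edgeR called 0, 1, 0, 1 and 1 for azacitidine in WT, azacitidine in R882H, the difference between responses, and genotype under NaCl and under azacitidine, and 4 on average. DESeq2 called 46, 88, 12, 28, 21 and 161. Libraries numbered 1 and 2 gave 53 in R882H, 4 for the difference between responses and 9 for genotype under azacitidine, and libraries numbered 3 and above gave 233 in R882H and 860 on average. Leaving out 1 library gave up to 7 in WT and 46 on average, both without replicate 3 of WT with azacitidine.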

Other observations

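Xlr4e-ps, an annotated unprocessed pseudogene of the family at chrX:74944963-74952044 (GRCm38), lies outside the cluster and was picked out after its values were seen. It had 229 counts over the 16 libraries. In CPM it was at 0.305, 0.293, 0.152 and 0.164 in WT with NaCl and at 0.312, 0.893 and 0.667 in WT with azacitidine. In R882H with NaCl it was at 0.236, 0.0770, 0.215 and 0.0416 CPM, and in R882H with azacitidine at 0.320, 0.348, 0.706, 0.449 and 0.321 CPM. The groups did not overlap in either genotype, although the margin in WT was 13 counts in each of the libraries that face each other. The log2 difference was 1.44 (SE 0.57) in WT and 1.59 (SE 0.54) in R882H, and edgeR's adjusted p was 0.825 and 0.551. Over all genes, 0.169% had azacitidine above NaCl without overlap in both genotypes. Its transcript shares exact runs of 50 bases with those of Xlr4a, Xlr4b and Xlr4c, and whether its counts come from their reads was not tested.

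The other pseudogenes of the family were close to 0, with 26 counts over the 16 libraries for Xlr4d-ps, 6 for Xlr3d-ps and 3 for Xlr3e-ps.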
